A study of Mus musculus with 9 samples.

Results

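The proteasome subunit genes are the genes that encode the particle which destroys ubiquitin-tagged proteins. They were taken as all protein-coding genes whose symbol is Psma, Psmb, Psmc, Psmd or Psme followed by a number, which gave 43 genes on 16 chromosomes out of 54446 gene identifiers counted. Their messenger RNA was measured by strand-specific sequencing of polyadenylated RNA in 9 brain libraries of adult male mice aged 3 to 4 months. The mice carried 1 inactive copy of Tfap2a (Tfap2a+/-), 1 inactive copy of Tfap2b (Tfap2b+/-) or neither (wild type, labelled B6N), with 3 libraries per genotype. Tfap2a encodes AP-2 alpha and Tfap2b encodes AP-2 beta, related transcription factors of the neural crest and the developing nervous system. The part of the brain that was sampled and the construction of the alleles are not given in the sources used here. Nothing in the labels shows that libraries of a genotype are different animals, and each p-value therefore rests on the spread between samples that may not be separate animals. Libraries of 1 genotype did differ by more than sampling noise (chi-square per degree of freedom of 19.9 or more).

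The proteasome has a barrel-shaped 20S core, made of outer rings of alpha subunits (Psma) and inner rings of beta subunits (Psmb), some of which carry the cutting sites. A 19S regulator binds the end of the barrel: its ATPases (Psmc) unfold the substrate and feed it in, and its other subunits (Psmd) recognise and remove the ubiquitin chain. Cells exposed to interferon, and immune cells, replace the 3 catalytic beta subunits Psmb5, Psmb6 and Psmb7 by Psmb8, Psmb9 and Psmb10, which gives the immunoproteasome, and activators other than the 19S regulator (Psme) can open the core. Neurons depend on the proteasome for the turnover of synaptic proteins.

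Gene counts per library ran from 22496880 to 28517579 in Tfap2a+/-, from 26216100 to 29214975 in the libraries labelled Tfap2b+/- and from 21946800 to 27051802 in wild type. Reads of the 43 genes made up between 0.235% and 0.261% of them. Tfap2a was scarce in every library, at 0.445, 0.223 and 0.460 CPM (counts relative to the library total, corrected with TMM factors) in Tfap2a+/- and 0.610, 0.263 and 0.733 CPM in wild type (log2 fold change -0.49, 95% interval -2.31 to 1.33). Tfap2b stood at 32.9, 8.89 and 5.80 CPM in those labelled Tfap2b+/- and at 2.25, 0.714 and 14.8 CPM in wild type (log2 fold change 1.42, 95% interval -0.80 to 3.64, edgeR adjusted p = 0.598). Its RNA thus did not show the loss of a copy. The Tfap2a values also overlapped between Tfap2a+/- and wild type. As the alleles are not described, RNA level cannot settle either genotype, and both group names rest on the labels. The Tfap2b+/- group is called by its label below. Choroid plexus markers were highest in library 1 of Tfap2a+/- and library 2 of wild type, at 831 and 3023 CPM summed. The hindbrain list, mainly Tph2 and Slc6a4, summed highest by far in library 1 labelled Tfap2b+/-, where 2 of its 5 genes had no count. These 3 libraries are named below as the marker-high libraries. The others were not alike: choroid plexus markers reached 283 CPM in library 2 labelled Tfap2b+/-. Oligodendrocyte markers summed to 1987 CPM in library 3 of Tfap2a+/- and 2381 CPM in library 3 labelled Tfap2b+/-, against 3914 to 6530 CPM elsewhere. Fragments outside annotated exons were more frequent in the libraries labelled Tfap2b+/-, at 11.8%, 11.1% and 11.1%, than in wild type, at 8.86%, 7.30% and 7.88%, a difference of 3.33 percentage points (two-sided exact permutation p = 0.1, the smallest this design allows).

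Nearly all members were well expressed. To compare genes with each other, CPM were divided by the length of the gene's exons in kilobases (CPM per kb), averaged over the 9 libraries. The 14 constitutive 20S core genes had a median of 21.6 CPM per kb and lay between 13.4 for Psmb3 and 45.8 for Psma6, a 3.41-fold range. The 17 genes of the 19S regulator had the same median to 3 digits, 21.6 CPM per kb, but spread over an 8.22-fold range. Psmd11, a scaffold subunit of the regulator's lid, was the lowest of these at 10.4 CPM per kb. Psmc5, an ATPase, was the highest of all members at 85.2 CPM per kb, followed by the ATPase Psmc1 at 60.1 and Psmd2, a scaffold of the regulator's base, at 47.1. With the length of the principal transcript in place of all exons, a choice made after seeing the data, the medians were 44.0 for the 20S core and 42.9 for the 19S regulator, with Psmb7 in place of Psma6 as the highest core gene. The core genes then ran from 20.7 to 62.6 and the 19S genes from 23.2 to 90.2, so the ranges were closer to each other. Levels of single genes, and how much wider the 19S range was, therefore depended on the length used, whereas Psmc5 was the highest member under both.

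**Figure D1:**
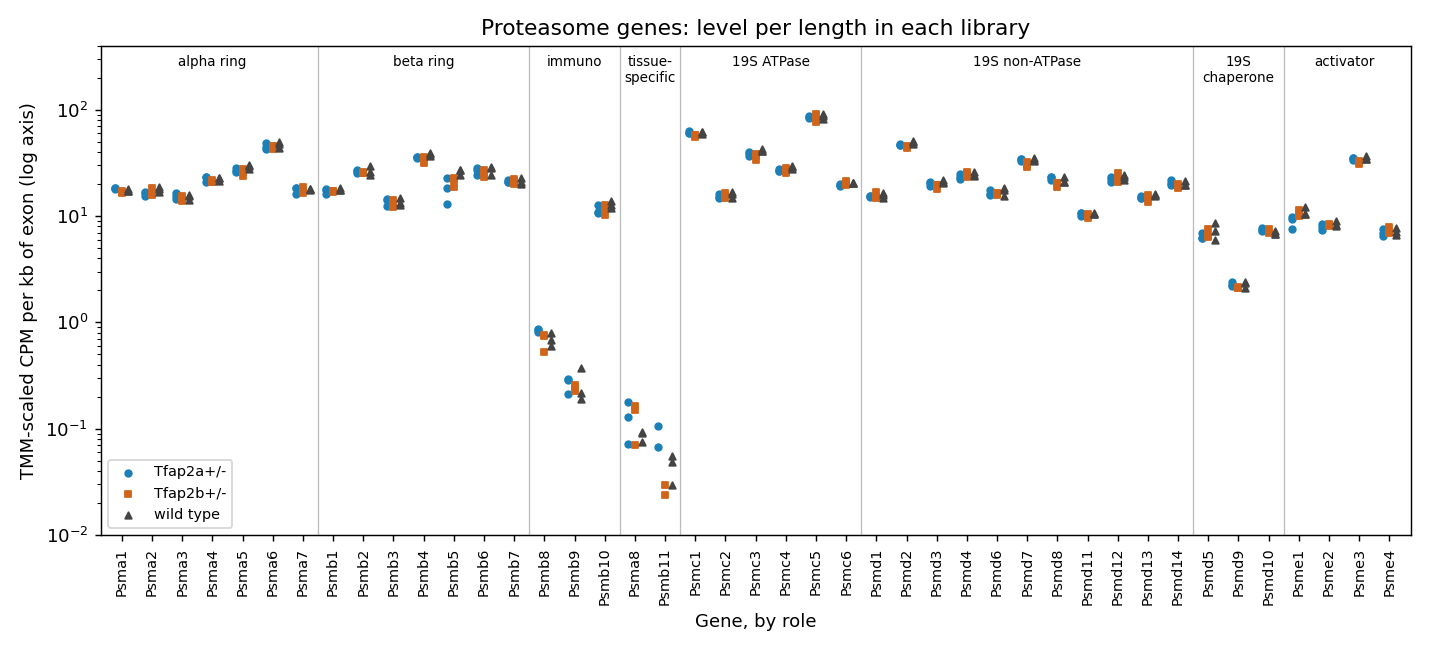
Level of each of the 43 proteasome genes in each library, in TMM-scaled CPM per kilobase of exon on a log axis, grouped by role; circles are Tfap2a+/-, squares libraries labelled Tfap2b+/- and triangles wild type (3 libraries each). The 20S core and 19S genes lie between about 10 and 100 in every library, Psmb8 and Psmb9 lie below 1, and the 2 libraries in which Psmb11 had no count are not drawn.

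The members known from special tissues were close to the floor. Psma8, the alpha subunit of the testis proteasome, had 0.445, 0.178 and 0.322 CPM in Tfap2a+/-, 0.176, 0.404 and 0.377 CPM in those labelled Tfap2b+/- and 0.188, 0.226 and 0.231 CPM in wild type. Psmb11, the catalytic subunit of the thymus proteasome, had no count in 1 Tfap2a+/- library and in 1 library labelled Tfap2b+/-, and at most 0.513 CPM in any library. A count of 0 allows up to 3 counts, which is 0.101 to 0.141 CPM in these libraries and covers counting error only. These 2 genes failed the filter on low counts, so 41 of the 43 members were tested.

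The assembly chaperones of the 19S regulator and 3 of the 4 activators lay below the medians of the core and the regulator per kb. The chaperones Psmd5, Psmd9 and Psmd10, which hold the ATPases during assembly and leave the finished particle, had 6.84, 2.23 and 7.21 CPM per kb. Among the activators, Psme3, which forms a nuclear cap on the core, stood at 34.0 CPM per kb, above both medians. Psme1 and Psme2, the interferon-inducible pair that form a mixed ring, had 10.2 and 8.20 CPM per kb, and Psme4, a large single-chain activator, had 7.16 CPM per kb. With the principal transcript length Psme3 stood at 37.6, below the medians of 44.0 for the core and 42.9 for the regulator, so its place depended on the length used.

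The immunoproteasome genes differed from each other in level by more than any other class. Psmb10 had 11.9 CPM per kb, Psmb8 0.737 and Psmb9 0.255, a 46.7-fold range. Set against the subunit it replaces, in the same library and per kb, Psmb10 was 1.45 to 2.19 times less abundant than Psmb7, Psmb8 was 15.4 to 44.8 times less abundant than Psmb5, and Psmb9 was 64.9 to 148 times less abundant than Psmb6. With the principal transcript length these ranges were 3.29 to 4.96 for Psmb10, 7.39 to 21.6 for Psmb8 and 56.3 to 129 for Psmb9. Under both lengths all 9 libraries held more constitutive than immuno subunit RNA for each of the 3 catalytic sites. Bulk tissue does not resolve which cells gave the immunoproteasome reads, and fewer cells of a type and less RNA per cell cannot be told apart. The 8 microglial markers were present in every library, with a summed level of 364 to 487 CPM in Tfap2a+/-, 263 to 369 CPM in those labelled Tfap2b+/- and 346 to 399 CPM in wild type. The 8 markers of blood immune cells summed to at most 7.08 CPM, and 1 to 3 of them had no count in each library. The part of these cells in the immunoproteasome signal was not tested.

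**Figure D2:**
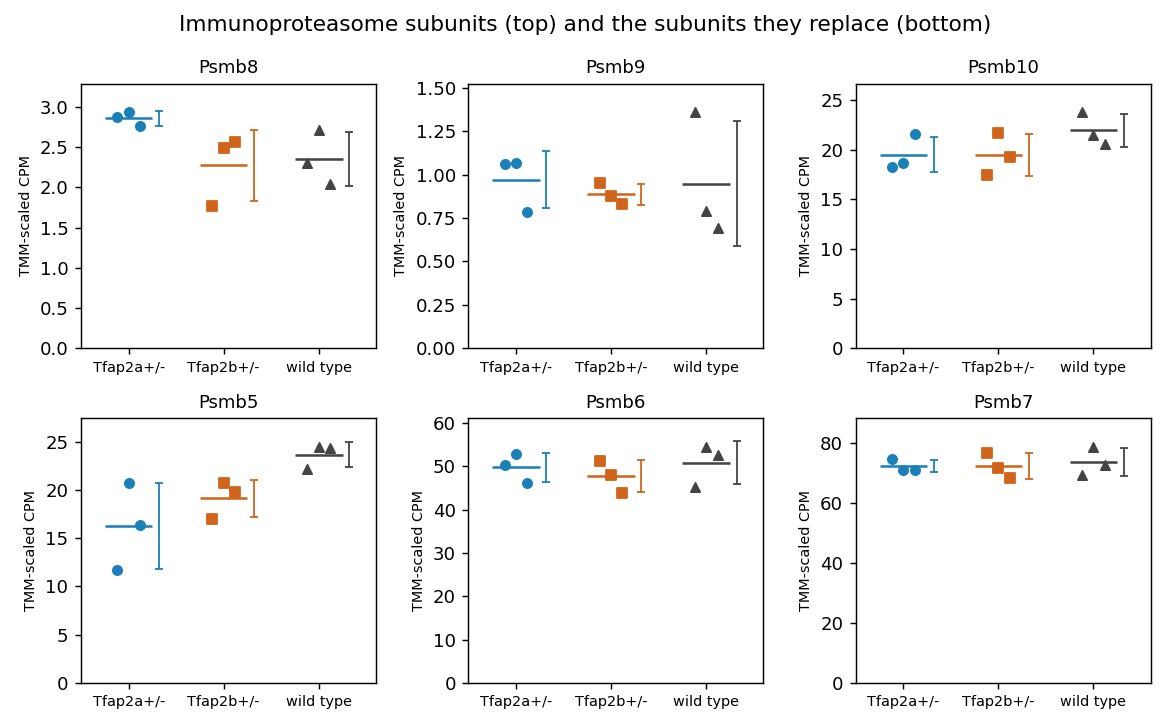
TMM-scaled CPM of the 3 immunoproteasome subunits (top) and of the catalytic subunits they replace (bottom) in each library; lines are group means and bars SD (n = 3), and every axis starts at 0. Psmb5 lies lower in all 6 libraries of the Tfap2a+/- and Tfap2b+/- groups than in the 3 wild-type libraries, and Psmb8 lies higher in the 3 Tfap2a+/- libraries than in the other 6.

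AP-2 proteins bind palindromes of the form GCCNNNGGC, and proteasome genes in mammals are known targets of NFE2L1, which binds antioxidant response elements with the core TGACNNNGC. Promoter windows from 250 bases before to 50 after the start were found in RefSeq (build GRCm38.p6) for 36 of the 43 members and searched on both strands, counting overlapping matches. The AP-2 palindrome occurred in 5 of the 36 members (13.9%) and in 18.5% of all 27025 genes with a window. These 5 members were Psma7, Psmc4, Psmc6, Psmd1 and Psmd6. The antioxidant response core occurred in 6 of the 36 members (16.7%) and in 14.0% of all genes, the CCAAT box in 14 members (38.9%) and 41.1% of all genes, and the interferon-type element, GAAA, any 2 bases and GAAA, in 4 members (11.1%), Psmb3, Psmd4, Psmd9 and Psme1, and 3.99% of all genes. The windows of the members had a median GC content of 57.3%, against 52.7% over all windows. The first 4 sequences below show palindromes in promoters of 19S genes, and the last 2 show antioxidant response cores of the catalytic subunits Psmb5 and Psmb6; each is given 5′ to 3′ on the strand of its gene, with the match in capitals. A match describes letters and does not show binding.
Psmc6, chr14:45329698-45329727, plus strand, AP-2: ggcgcccggaGCCAGAGGCgggccagccgg
Psmc6, chr14:45329743-45329772, plus strand, AP-2: tcacggtcccGCCCCAGGCcgcctctgcgc
Psmd1, chr1:86064582-86064611, plus strand, AP-2: tttgagccaaGCCTCAGGCggagatgcggg
Psmc4, chr7:28050165-28050194, minus strand, AP-2: tgggggcggaGCCCAGGGCtaagagtttcc
Psmb5, chr14:54618023-54618052, minus strand, antioxidant response: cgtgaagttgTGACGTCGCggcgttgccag
Psmb6, chr11:70525338-70525367, plus strand, antioxidant response: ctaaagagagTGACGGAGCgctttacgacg

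The libraries of 1 genotype held the proteasome genes at very similar levels. The standard deviation of log2 CPM within groups had a median of 0.0754 over the 41 tested members, against 0.215 over all 17355 genes tested, and it was below that of the median gene for 39 of the 41. Psmd2 varied least, at 0.0343. The median was 0.0686 for the 19S regulator, 0.0813 for the 20S core and 0.204 for the immunoproteasome, and the 2 members above the median gene were Psmb9 at 0.312, whose counts were low, and Psmb5 at 0.256, whose counts were not. Only 7.56% of all genes had a smaller spread than the median member. Over the 14756 protein-coding genes tested the median spread was 0.184. Genes of matched expression level were not compared, so the part of expression level in the small spread was not tested. The standard error of a fold change was correspondingly small, with a median of 0.08 on the log2 scale over the members in the Tfap2a+/- comparison and 0.17 over all genes. The same limit applies to this difference and to the shares of intervals given below.

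**Figure D3:**
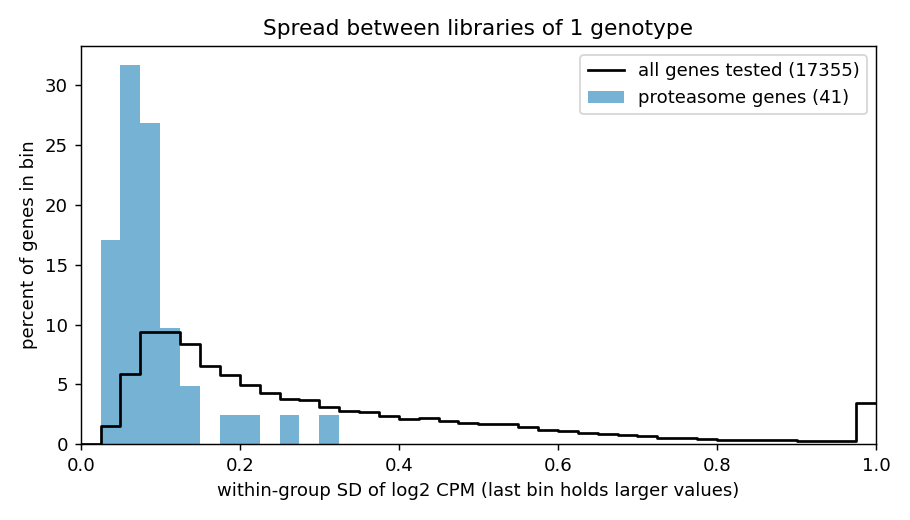
Share of genes (percent) by the standard deviation of log2 CPM between libraries of 1 genotype, for the 41 tested proteasome genes (filled) and all 17355 genes tested (line). Most proteasome genes lie below 0.1. Psmb9, Psmb5 and Psmb8 lie farthest to the right, at 0.312, 0.256 and 0.204, while Psmd5 (0.175) and Psme1 (0.146) lie to the right of Psmb10 (0.132).

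The first comparison asks whether loss of 1 Tfap2a copy altered proteasome gene expression. No member passed the test in Tfap2a+/- against wild type: edgeR's quasi-likelihood test called 0 of the 41 members at an adjusted p under 0.05 and 0 of all 17355 genes (0%), and DESeq2 called 0 members and 30 genes (0.173%). At an unadjusted p under 0.05 edgeR counted 2 members, both lower, against 1.68% of all genes lower and 3.84% in either direction. The log2 fold changes of the members had a median of -0.04, with 30 of 41 below 0, while the median over all genes was -0.01 and 51.8% lay below 0. By class the median was -0.03 for the 20S core, -0.05 for the 19S regulator, -0.06 for the activators, -0.01 for the chaperones and 0.05 for the immunoproteasome. The 95% interval of 35 of the 41 members lay wholly within a 1.25-fold change in either direction, which held for 26.3% of all genes. All 17 genes of the 19S regulator were among the 35.

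Psmb5, the core subunit with chymotrypsin-like activity and the main target of proteasome inhibitor drugs (chromosome 14, 54614119 to 54618022, minus strand), had the largest difference. It stood at 11.7, 20.7 and 16.4 CPM in Tfap2a+/-, at 17.0, 20.7 and 19.7 CPM in those labelled Tfap2b+/- and at 22.1, 24.5 and 24.3 CPM in wild type. Every library of both heterozygous groups was below every wild-type library, and the Tfap2a+/- libraries differed among themselves by more than they differed on average from wild type. The log2 fold change was -0.54 ± 0.18 (SE, 95% interval -0.96 to -0.13) in Tfap2a+/- and -0.31 ± 0.18 in the libraries labelled Tfap2b+/-, with edgeR adjusted p = 0.999 and 0.553 over all genes. Without the 3 marker-high libraries the value was -0.32 in Tfap2a+/- and -0.19 in the libraries labelled Tfap2b+/-, and without Tfap2a+/- library 1 or 2 the Tfap2a+/- value was -0.35 or -0.75. Psmb5 has a named pseudogene copy, Psmb5-ps, counted at 0.0445 CPM or less, and reads that fit several positions are not counted, so its level is less certain than that of genes with no copy. Reads over the 109 of its 899 exon bases shared with the microRNA gene Mir686 are not counted either.

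The other catalytic subunits had overlapping groups. Psmb6, with caspase-like activity, had 50.4, 52.8 and 46.1 CPM in Tfap2a+/-, 51.2, 48.0 and 43.9 CPM in those labelled Tfap2b+/- and 45.2, 54.6 and 52.7 CPM in wild type. Psmb7, with trypsin-like activity, had 74.5, 70.9 and 71.0 CPM in Tfap2a+/-, 76.7, 71.6 and 68.3 CPM in those labelled Tfap2b+/- and 69.3, 78.6 and 72.5 CPM in wild type. The ranges of all 3 groups overlapped for both genes, with log2 fold changes in Tfap2a+/- of -0.03 for each and 95% intervals of -0.25 to 0.19 for Psmb6 and -0.20 to 0.14 for Psmb7.

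Psmb8, the immunoproteasome counterpart of Psmb5, lies in the class II region of the major histocompatibility complex (chromosome 17, 34197721 to 34201454). It had 2.87, 2.94 and 2.76 CPM in Tfap2a+/-, 1.76, 2.49 and 2.56 CPM in those labelled Tfap2b+/- and 2.30, 2.71 and 2.04 CPM in wild type. The Tfap2a+/- libraries lay above the other 6, with a log2 fold change over wild type of 0.28 ± 0.21 (SE, edgeR adjusted p = 0.999). This value was 0.49 with unstranded counts and 0.40 without the 3 marker-high libraries. Under the same settings the value in the libraries labelled Tfap2b+/- also rose, from -0.05 to 0.28 and 0.23. The difference between the heterozygotes fell from 0.33 to 0.21 and 0.17. The log2 ratio of Psmb8 to Psmb5 per kb averaged -4.38 ± 0.40 in Tfap2a+/-, -5.00 ± 0.16 in the libraries labelled Tfap2b+/- and -5.25 ± 0.21 in wild type (SD, n = 3 each). Its range in Tfap2a+/-, -4.73 to -3.94, did not overlap that of wild type, -5.48 to -5.09, with Psmb8 at its higher and Psmb5 at its lower values. As Psmb8 lay wholly above and Psmb5 wholly below wild type in Tfap2a+/-, their ratio could not overlap and adds nothing to the values of the single genes. This pair was described after its values were seen, so no test is given.

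The other immuno subunits had overlapping groups. Psmb9 had 1.06, 1.07 and 0.782 CPM in Tfap2a+/-, 0.952, 0.875 and 0.829 CPM in those labelled Tfap2b+/- and 1.36, 0.790 and 0.694 CPM in wild type. Psmb10 had 18.3, 18.7 and 21.6 CPM in Tfap2a+/-, 17.5, 21.7 and 19.3 CPM in those labelled Tfap2b+/- and 23.8, 21.5 and 20.6 CPM in wild type. All groups overlapped for both genes, and wild-type library 1 was the highest for each. The log2 ratio to the replaced subunit averaged -6.66 in Tfap2a+/-, -6.72 in the libraries labelled Tfap2b+/- and -6.77 in wild type for Psmb9, and for Psmb10 it averaged -0.88 in Tfap2a+/-, -0.89 in the libraries labelled Tfap2b+/- and -0.74 in wild type. Exons of Psmb8 and Psmb9 overlap the antisense genes Gm20496 and Tap1, and the strand-specific counts used here separate them.

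Psme1 (chromosome 14, 55578123 to 55581529, plus strand) was the other member with an unadjusted p under 0.05. It had 20.7, 21.5 and 16.6 CPM in Tfap2a+/-, 25.2, 22.2 and 23.2 CPM in those labelled Tfap2b+/- and 23.2, 26.8 and 23.3 CPM in wild type. The Tfap2a+/- libraries lay below the other 6, with log2 fold changes of -0.32 ± 0.12 against wild type (edgeR adjusted p = 0.999) and -0.26 ± 0.12 against the libraries labelled Tfap2b+/- (edgeR adjusted p = 0.434). Without Tfap2a+/- library 3, the lowest, the value against wild type was -0.20. Its ring partner Psme2, from a neighbouring gene on the same chromosome, had 14.8, 14.0 and 13.1 CPM in Tfap2a+/-, 14.4, 14.5 and 14.8 CPM in those labelled Tfap2b+/- and 14.3, 15.8 and 14.6 CPM in wild type, and its groups overlapped.

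In all, 9 of the 41 members had Tfap2a+/- libraries that did not overlap the wild-type ones. Psmb8 and Psmd10 were the 2 that were higher, against 4.85% of all genes. The 7 lower ones were Psma2, Psmb4, Psmb5, Psmc3, Psmc6, Psmd13 and Psme1, against 4.32% of all genes. On library totals Psmb8 and Psmd10 again lay above wild type, against 5.3% of all genes, and 4 members lay below, Psma5, Psmb5, Psmc3 and Psme1, against 3.54%. Psmd10, a chaperone also known as the oncoprotein gankyrin, had 10.7, 11.5 and 10.9 CPM in Tfap2a+/-, 11.1, 10.2 and 10.3 CPM in those labelled Tfap2b+/- and 9.99, 10.0 and 10.6 CPM in wild type. Psma2, an alpha ring subunit, had 62.1, 60.9 and 57.3 CPM in Tfap2a+/-, 67.0, 57.6 and 58.8 CPM in those labelled Tfap2b+/- and 62.3, 69.4 and 65.8 CPM in wild type. These gaps were small: the log2 fold change was 0.11 ± 0.09 for Psmd10 and -0.13 ± 0.08 for Psma2 (SE).

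**Figure D4:**
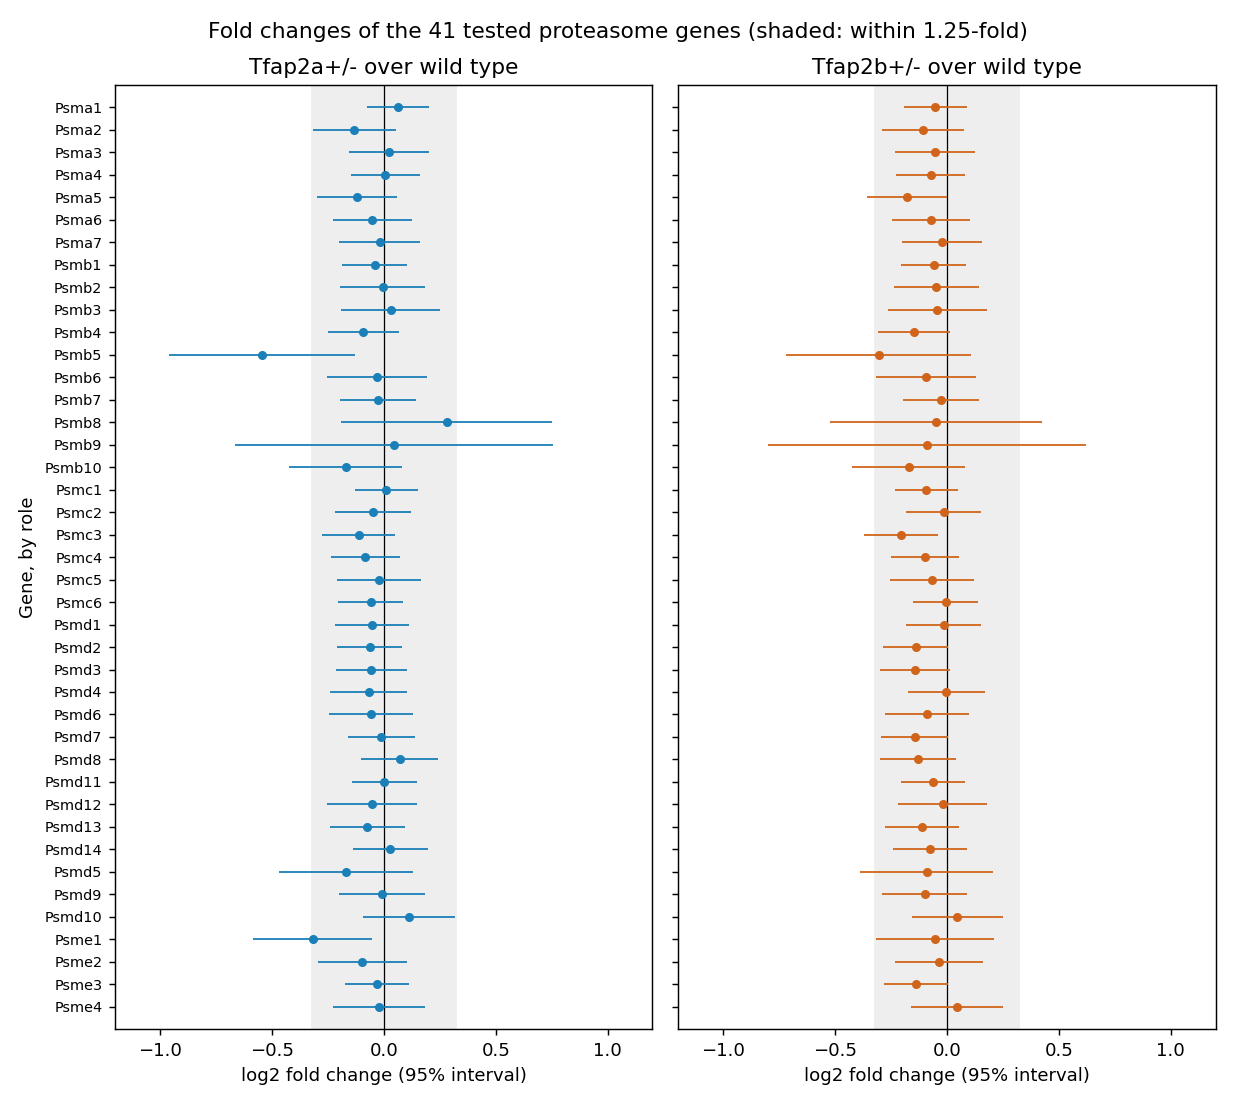
Log2 fold change (points) with its 95% interval (lines) for the 41 tested proteasome genes, in Tfap2a+/- over wild type (left) and in libraries labelled Tfap2b+/- over wild type (right); shading marks changes within 1.25-fold. In the right panel 39 of 41 points lie below 0, and only Psmd10 and Psme4 lie above it; with library totals in place of TMM factors 21 of 41 were below 0.

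The second comparison asks the same of Tfap2b. In the libraries labelled Tfap2b+/- against wild type, edgeR again called 0 of the 41 members and 0 of all genes (0%), and DESeq2 called 0 members and 175 genes (1.03%). At an unadjusted p under 0.05 edgeR counted 1 member, lower, against 4.15% of all genes lower and 10.6% in either direction, and DESeq2 counted 5 members, against 11.2% of all genes. The fold changes were small, yet 39 of the 41 were below 0, while 50.3% of all genes and 53.6% of the 14756 protein-coding genes tested were below 0. The median log2 fold change was -0.07 over the members and -0.00 over all genes. This direction depended on the scaling: with library totals in place of TMM factors, an alternative chosen after seeing the data, 21 of the 41 members and 36.6% of all genes were below 0, and the medians were -0.00 over the members and 0.07 over all genes. With DESeq2's size factors in edgeR, 39 of the 41 members were below 0, with a median of -0.08. The values that follow are with TMM scaling. All 14 genes of the 20S core (median -0.07), all 17 of the 19S regulator (median -0.09) and all 3 of the immunoproteasome (median -0.09) were below 0, as were 3 of the 4 activators and 2 of the 3 chaperones. The exceptions were Psmd10 and Psme4, each at 0.05. Proteasome genes share regulators and libraries, so the 41 directions are not independent observations. The intervals of 34 of the 41 members lay within a 1.25-fold change, which held for 20.7% of all genes.

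The libraries labelled Tfap2b+/- lay wholly below wild type for 11 members and wholly above for 0, against 7.63% and 8.84% of all genes. The 11 were Psma5, Psmb1, Psmb4, Psmb5, Psmc1, Psmc3, Psmd2, Psmd3, Psmd7, Psmd8 and Psme3. On library totals 4 of them, Psmb5, Psmc3, Psmd3 and Psme3, lay wholly below wild type, against 3.75% of all genes, and 0 members wholly above, against 12.7%. Psmc3, an ATPase of the regulator (chromosome 2, 91054009 to 91066369), was the member with an unadjusted p under 0.05. It had 96.7, 103 and 104 CPM in Tfap2a+/-, 87.9, 95.9 and 101 CPM in those labelled Tfap2b+/- and 112, 108 and 108 CPM in wild type. Its log2 fold change was -0.21 ± 0.07 (SE, edgeR adjusted p = 0.429) in the libraries labelled Tfap2b+/- and -0.11 ± 0.07 in Tfap2a+/-, and the libraries of both groups lay below those of wild type.

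Other members of smallest p in this comparison had differences of the same size. Psmd2 had 189, 189 and 194 CPM in Tfap2a+/-, 186, 181 and 176 CPM in those labelled Tfap2b+/- and 194, 204 and 200 CPM in wild type. Psmd7, a lid subunit that pairs with the deubiquitinase Psmd14, had 74.1, 77.8 and 77.2 CPM in Tfap2a+/-, 66.2, 72.9 and 69.9 CPM in those labelled Tfap2b+/- and 79.6, 74.5 and 76.9 CPM in wild type. Psma5, an alpha ring subunit, had 34.9, 37.4 and 34.7 CPM in Tfap2a+/-, 31.7, 34.4 and 36.5 CPM in those labelled Tfap2b+/- and 40.3, 37.0 and 38.8 CPM in wild type. For these 3 genes the libraries labelled Tfap2b+/- lay below wild type without overlap with TMM scaling but not on library totals, at log2 fold changes of -0.14 for Psmd2, -0.14 for Psmd7 and -0.18 for Psma5 (SE 0.06, 0.07 and 0.08). Psme3 had 104, 99.7 and 103 CPM in Tfap2a+/-, 91.0, 95.7 and 96.8 CPM in those labelled Tfap2b+/- and 102, 108 and 102 CPM in wild type, with a log2 fold change of -0.14 ± 0.06 in the libraries labelled Tfap2b+/-. Psme4 had 55.0, 57.6 and 64.0 CPM in Tfap2a+/-, 58.8, 59.7 and 66.3 CPM in those labelled Tfap2b+/- and 64.2, 59.7 and 55.1 CPM in wild type, with overlapping groups and a log2 fold change of 0.05 ± 0.09 in the libraries labelled Tfap2b+/-.

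Summed over the 43 members, the level was 2458, 2489 and 2429 CPM in Tfap2a+/-, 2413, 2403 and 2368 CPM in those labelled Tfap2b+/- and 2497, 2583 and 2537 CPM in wild type. The 3 groups did not overlap in this TMM-scaled sum, and every heterozygous library lay below every wild-type library, but this did not hold without scaling. As a share of the unscaled gene counts the members made up 0.252%, 0.242% and 0.235% in Tfap2a+/-, 0.261%, 0.244% and 0.237% in those labelled Tfap2b+/- and 0.242%, 0.254% and 0.251% in wild type. All groups overlapped in this share, and library 1 labelled Tfap2b+/- was the highest of the 9. The 19S regulator alone summed to 1427 to 1455 CPM in Tfap2a+/-, 1379 to 1410 CPM in those labelled Tfap2b+/- and 1470 to 1489 CPM in wild type. Other measures differed between the groups: the 5 nuclear RNAs (Malat1, Neat1, Meg3, Kcnq1ot1 and Snhg11) summed to 3812 to 4750 CPM in Tfap2a+/-, 5217 to 7144 CPM in those labelled Tfap2b+/- and 2629 to 4548 CPM in wild type, and 4 of the 5 lay above wild type without overlap in the libraries labelled Tfap2b+/-. Of the cerebellum markers, Calb2 and Zic1 carried the signal while Gabra6 and Pcp2 were at or near 0, and the 4 summed to 22.4 to 130 CPM in Tfap2a+/-, 109 to 165 CPM in those labelled Tfap2b+/- and 44.2 to 74.9 CPM in wild type. The 5 hindbrain markers, mainly Tph2 and Slc6a4, summed to 0.787 to 0.935 CPM in Tfap2a+/-, 67.9, 1.52 and 2.30 CPM in those labelled Tfap2b+/- and 0.516 to 1.23 CPM in wild type. For both lists the libraries labelled Tfap2b+/- lay above wild type, though library 2 only narrowly for the hindbrain list. The 5 neuronal markers, whose groups overlapped, summed to 4671 to 6528 CPM in Tfap2a+/-, 3971 to 5186 CPM in those labelled Tfap2b+/- and 5110 to 6306 CPM in wild type. The part of nuclear RNA, of reads outside exons and of cell makeup in the proteasome values was not tested. Without the 3 marker-high libraries, 33 of 41 members were below 0 in the libraries labelled Tfap2b+/-, with a median of -0.04, and without wild-type library 2 alone it was 29 of the 42 members then tested.

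**Figure D5:**
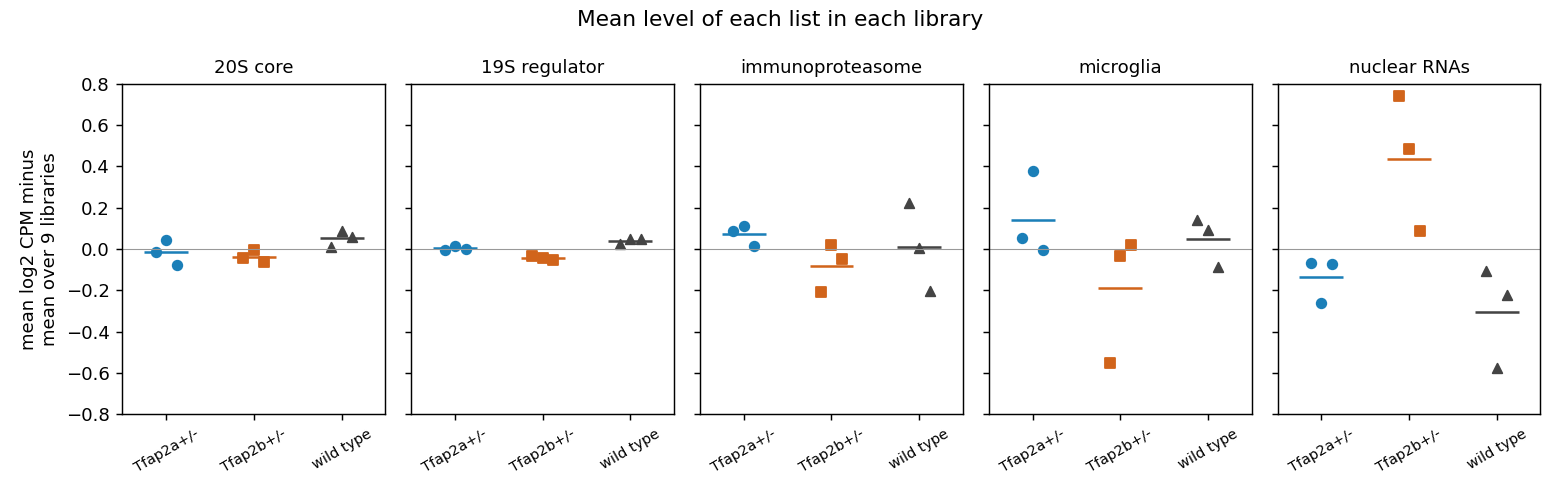
Mean log2 CPM of each list in each library, as the difference from the gene's mean over the 9 libraries, for 3 proteasome classes, the 8 microglial markers and the 5 nuclear RNAs; lines are group means (n = 3). The 19S genes span about 0.1, whereas microglial markers run from -0.55 to 0.38 and nuclear RNAs from -0.58 to 0.74.

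Between the heterozygotes, Tfap2a+/- against the libraries labelled Tfap2b+/-, edgeR called 0 members and 0 of all genes (0%), and DESeq2 called 0 members and 228 genes (1.37%). At an unadjusted p under 0.05 edgeR counted 1 member, higher in Tfap2a+/-, against 4.98% of all genes higher and 11.5% in either direction. The median log2 fold change of the members was 0.05, with 29 of 41 above 0, against a median of -0.01 and 48.3% of all genes above 0. On library totals the median was -0.02 over the members and -0.07 over all genes, with 16 of 41 members above 0. The intervals of 35 of the 41 lay within 1.25-fold, against 21.1% of all genes. The member of smallest p was Psmd8, a lid subunit, with 66.9, 71.5 and 72.0 CPM in Tfap2a+/-, 58.1, 62.2 and 63.1 CPM in those labelled Tfap2b+/- and 64.7, 72.0 and 63.5 CPM in wild type. Its log2 fold change between the heterozygotes was 0.20 ± 0.08 (SE, edgeR adjusted p = 0.398). Tfap2a+/- lay above the libraries labelled Tfap2b+/- without overlap for 8 members, against 8.03% of all genes, and below for 1, Psme1, against 9.2% of all genes. On library totals it lay above for 3, against 5.39% of all genes, and below for 1, Psme1, against 11.6%. Both comparisons against wild type use the same 3 wild-type libraries, so the low values in both are not counted as a repeat.

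The remaining members shown have the highest or lowest CPM per kb of their classes. Psmc5, the highest of all, had 116, 122 and 119 CPM in Tfap2a+/-, 126, 115 and 106 CPM in those labelled Tfap2b+/- and 128, 114 and 122 CPM in wild type. Psma6 had 60.2, 52.8 and 55.4 CPM in Tfap2a+/-, 56.3, 56.8 and 53.0 CPM in those labelled Tfap2b+/- and 58.7, 54.6 and 61.2 CPM in wild type. Psmb4, a non-catalytic beta subunit, had 71.1, 69.7 and 68.6 CPM in Tfap2a+/-, 69.0, 70.5 and 61.9 CPM in those labelled Tfap2b+/- and 72.3, 76.5 and 74.3 CPM in wild type, so that both heterozygous groups lay below wild type with TMM scaling, though not on library totals. Its log2 fold changes were -0.09 ± 0.07 in Tfap2a+/- and -0.15 ± 0.07 in the libraries labelled Tfap2b+/- (SE). Psmd11, the lowest of the 19S genes per kb, had 64.3, 68.9 and 68.5 CPM in Tfap2a+/-, 61.7, 64.4 and 66.4 CPM in those labelled Tfap2b+/- and 68.1, 66.8 and 66.3 CPM in wild type. Psmc2, the lowest ATPase per kb, had 80.8, 77.0 and 74.2 CPM in Tfap2a+/-, 79.5, 75.2 and 82.8 CPM in those labelled Tfap2b+/- and 74.7, 84.3 and 80.9 CPM in wild type. Groups overlapped for both. Psma3 had 60.3, 64.0 and 56.2 CPM in Tfap2a+/-, 53.8, 60.1 and 57.3 CPM in those labelled Tfap2b+/- and 55.6, 61.2 and 60.8 CPM in wild type. Psmb3 had 33.6, 33.0 and 28.4 CPM in Tfap2a+/-, 28.3, 32.3 and 29.7 CPM in those labelled Tfap2b+/- and 33.7, 30.3 and 29.1 CPM in wild type. Psmd9, the lowest chaperone per kb, had 15.9, 17.4 and 16.2 CPM in Tfap2a+/-, 15.7, 15.4 and 15.3 CPM in those labelled Tfap2b+/- and 15.3, 17.3 and 17.0 CPM in wild type. Psma3, Psmb3, Psmc2, Psmd9 and Psmd11 had log2 fold changes between -0.05 and 0.03 in Tfap2a+/- and between -0.10 and -0.01 in the libraries labelled Tfap2b+/-, and all their groups overlapped with wild type.

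Genes that work with the proteasome were read from the same fit. Of 21 partners and assembly factors, 18 genes of ubiquitin and of proteasome transcription control, and 30 of antigen presentation and the interferon response, 0 were called in any comparison by edgeR or DESeq2. At an unadjusted p under 0.05 edgeR counted 0, 2 and 0 genes of these lists in Tfap2a+/-, against 3.84% of all genes, 1, 2 and 3 in the libraries labelled Tfap2b+/-, against 10.6% of all genes, and 2, 2 and 2 between the heterozygotes, against 11.5% of all genes, in that order of lists. Outside the Tfap2a+/- comparison these shares were near or below those of all genes. The partners had a median log2 fold change of -0.02 in Tfap2a+/- and -0.08 in the libraries labelled Tfap2b+/-, and the ubiquitin and control genes had -0.06 and -0.09. For antigen presentation and the interferon response the medians were 0.01 and 0.06. In the libraries labelled Tfap2b+/-, 16 of 21 partners and 16 of 18 ubiquitin and control genes were below 0, as against 12 of the 30 antigen and interferon genes.

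Ufd1, a cofactor of the Vcp segregase that delivers substrates to the proteasome, had the smallest p of its list in Tfap2a+/-. It had 81.1, 62.5 and 83.8 CPM in Tfap2a+/-, 53.5, 57.6 and 57.8 CPM in those labelled Tfap2b+/- and 55.2, 61.9 and 53.0 CPM in wild type. The Tfap2a+/- libraries lay above the other 6, library 2 only narrowly and not on library totals, and the log2 fold change over wild type was 0.42 ± 0.12 (SE, edgeR adjusted p = 0.999). Nfe2l1, the transcription factor that raises proteasome genes when the proteasome is inhibited, had log2 fold changes of 0.04 ± 0.07 in Tfap2a+/- and -0.09 ± 0.07 in the libraries labelled Tfap2b+/- (SE). Ddi2, the protease that activates NFE2L1, had 71.7, 72.2 and 83.8 CPM in Tfap2a+/-, 65.8, 68.1 and 67.4 CPM in those labelled Tfap2b+/- and 70.3, 102 and 81.2 CPM in wild type. Its libraries labelled Tfap2b+/- lay below wild type without overlap, though not on library totals, at a log2 fold change of -0.33 ± 0.13 (SE, edgeR adjusted p = 0.451). Maff, a small Maf partner of the NFE2L factors, was scarce, at 0.41 to 0.53 CPM in those labelled Tfap2b+/- and 0.70 to 1.54 CPM in wild type, with a log2 fold change of -1.12 ± 0.36.

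Ube3c, a ubiquitin ligase that acts on the proteasome, Usp14, a deubiquitinase of the 19S regulator, and Zfand2a, a stress-induced proteasome-binding protein, were the partners of smallest p in the libraries labelled Tfap2b+/- against wild type. They lay below wild type without overlap there, on library totals Ube3c alone, with log2 fold changes of -0.19 ± 0.08, -0.15 ± 0.08 and -0.14 ± 0.07 (SE). In Tfap2a+/- the groups overlapped with wild type for each of them with TMM scaling, but on library totals Zfand2a lay wholly above wild type. Between the heterozygotes the partner of smallest p was Pomp, the maturation factor of the 20S core, with 68.7, 72.8 and 78.2 CPM in Tfap2a+/-, 58.5, 66.1 and 58.5 CPM in those labelled Tfap2b+/- and 66.6, 64.3 and 69.7 CPM in wild type. Its log2 fold change between the heterozygotes was 0.26 ± 0.08 (SE, edgeR adjusted p = 0.373), without overlap. Among the antigen presentation genes, the chaperones Calr and Pdia3, which load peptides onto class I molecules, had log2 fold changes of -0.30 ± 0.09 and -0.18 ± 0.07 in the libraries labelled Tfap2b+/-, while Tfap2a+/- overlapped wild type. Tap1, a subunit of the transporter that carries proteasome products into the endoplasmic reticulum, had 2.91, 2.85 and 3.13 CPM in Tfap2a+/-, 3.74, 3.91 and 3.81 CPM in those labelled Tfap2b+/- and 2.35, 2.59 and 3.47 CPM in wild type. The libraries labelled Tfap2b+/- lay above wild type without overlap, at a log2 fold change of 0.44 ± 0.18 (SE, edgeR adjusted p = 0.463), while its neighbour Psmb9 was at -0.09 ± 0.31.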

How the data were processed

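Members and gene lists were chosen with earlier results of these data known. The authors deposited whole-number counts per gene in STAR's layout for 9 libraries. Named without roles are the tools cutadapt 2.4, STAR 2.6.1d and edgeR and the build GRCm38.p6, per the submitters' processing notes, which name no annotation release. The reverse-strand counts fit the dUTP kit of the labels' protocols and were used. Of 54446 identifiers, 54409 matched GENCODE M21, which gave symbols, lengths and coordinates.

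Genes passing filterByExpr (17355) went into 1 fit of all 9 libraries by genotype, using TMM factors and the quasi-likelihood test of edgeR 4.0.16 under R 4.3.3. Benjamini-Hochberg adjustment ran over all genes, and an adjusted p under 0.05 was called. The tests were checked on simulated data. Intervals are 95% intervals. List scores used a prior count of 2. CPM, per-kb levels and ratios were computed here from the deposited counts.

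Values per library are given for catalytic and immuno subunits, activators, the 5 members of smallest p in each comparison against wild type and the 3 between the heterozygotes. They are also given for the extremes per length of each class, except Psmb11, which has a maximum. Up to 3 genes of smallest p per pathway list were named, with values per library for Ufd1, Ddi2 and Tap1. Maff has a range, and Ube3c, Usp14, Zfand2a, Calr and Pdia3 have fold changes only. Pomp was given as the partner of smallest p between the heterozygotes. Nfe2l1 was added after its values were seen. Of the partner list, Paaf1 was not matched. Alternatives were DESeq2 1.42.0, its size factors, other filters (none, or 1 CPM in 3 libraries), unstranded counts, replicate block, 2 genotypes only, library totals without TMM factors (chosen after seeing the data), each library left out, and the 3 marker-high libraries left out. A row naming no gene stayed out. Libraries of 1 genotype never agreed within sampling noise (chi-square per degree of freedom of 19.9 or more).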

Additional observations from a re-analysis of the deposited data

How the results depend on the processing

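No member was called under any of the 18 alternatives in any comparison. Replicate numbers did not pair the libraries, as same-numbered correlations ran from -0.35 to 0.34; the replicate block left 0 members called, with 30 of 41 below 0 in Tfap2a+/- and 39 of 41 in the libraries labelled Tfap2b+/-. At this depth the intervals of low genes such as Psmb9 stay wide. The causes of the changes below were not tested.

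Median log2 fold changes in Tfap2a+/- moved to -0.033 for 19S regulator without the marker-high libraries and -0.13 for immunoproteasome without the marker-high libraries. With 1 library left out the medians in Tfap2a+/- ran from -0.14 to 0.27 for immunoproteasome, from -0.053 to -0.0081 for all members and from -0.058 to -0.026 for 19S regulator. Median log2 fold changes in those labelled Tfap2b+/- moved to -0.000010 for all members with library totals, 0.0088 for 20S core with library totals, -0.015 for 19S regulator with library totals, -0.10 for 19S regulator with no filter, -0.070 for 19S regulator with the 1 CPM filter, -0.043 for all members without the marker-high libraries and -0.057 for 19S regulator without the marker-high libraries. With 1 library left out the medians in those labelled Tfap2b+/- ran from -0.095 to -0.074 for 19S regulator. Median log2 fold changes between the heterozygotes moved to -0.022 for all members with library totals, -0.016 for 20S core with library totals, -0.024 for 19S regulator with library totals and 0.061 for 19S regulator without the marker-high libraries. With 1 library left out the medians between the heterozygotes ran from 0.042 to 0.070 for 19S regulator. The median of the 20S core in Tfap2a+/- also turned sign with 1 library left out, from -0.051 to 0.015.

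The sign of a named gene's log2 fold change turned in 99 of 1547 refits, always for a gene not called that stood within 0.088 of 0. Turned values in Tfap2a+/- were, with library totals Psmd9 0.00044; with no filter Psmd11 -0.0079; with the 1 CPM filter Psmd9 0.0037; with unstranded counts Psmd11 -0.00025; without the marker-high libraries Psmb3 -0.024, Psmb6 0.022, Psmb7 0.0087, Psmb9 -0.13, Psmd9 0.059 and Psme4 0.036. With 1 library left out the values in Tfap2a+/- ran from -0.024 to 0.076 for Psma3, from -0.057 to 0.023 for Psmc5, from -0.026 to 0.017 for Psmd7, from -0.077 to 0.039 for Psme4, from -0.10 to 0.032 for Psmb6, from -0.062 to 0.034 for Psmb7, from -0.14 to 0.39 for Psmb9, from -0.091 to 0.00064 for Psmc2, from -0.055 to 0.034 for Psmd9, from -0.047 to 0.0099 for Psme3, from -0.015 to 0.11 for Psmb3, from -0.016 to 0.040 for Psmd11 and from -0.0037 to 0.070 for Nfe2l1. Turned values in those labelled Tfap2b+/- were, with library totals Psma3 0.019, Psma6 0.0036, Psmb3 0.031, Psmb7 0.050, Psmb8 0.017, Psmc2 0.058, Psmc5 0.0093, Psmd11 0.0089, Psme1 0.023 and Psme2 0.038; with the 1 CPM filter Psmc2 0.0039; with unstranded counts Psmb8 0.28; without the marker-high libraries Psma3 0.020, Psmb8 0.23, Psmc2 0.030 and Psme2 0.029. With 1 library left out the values in those labelled Tfap2b+/- ran from -0.098 to 0.021 for Psmb3, from -0.27 to 0.25 for Psmb9, from -0.067 to 0.035 for Psmb7, from -0.15 to 0.11 for Psmb8, from -0.063 to 0.034 for Psmc2, from -0.10 to 0.027 for Psme1, from -0.065 to 0.019 for Psme2 and from -0.013 to 0.10 for Psme4. Turned values between the heterozygotes were, with DESeq2 Psmb7 0.0077; with DESeq2's size factors Psmb7 0.0074; with library totals Psma5 -0.0037, Psma6 -0.044, Psmb10 -0.062, Psmb4 -0.011, Psmb6 -0.0057, Psmc5 -0.024 and Psmd10 -0.00031; with no filter Psmb7 0.0020; with the 1 CPM filter Psmb10 -0.0058; with 2 genotypes only Psmb7 0.0032; without the marker-high libraries Psma2 0.021, Psma6 -0.022, Psmb10 -0.027, Psmb3 -0.015 and Psmb7 0.020. With 1 library left out the values between the heterozygotes ran from -0.038 to 0.045 for Psmb7, from -0.034 to 0.064 for Psma6, from -0.065 to 0.047 for Psma2, from -0.071 to 0.086 for Psmb10, from -0.068 to 0.0032 for Psmc2 and from -0.011 to 0.11 for Psmc5.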

Other observations

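Several genes with proteasome-like symbols fell outside the members and were scarce in these brains. Psmc3ip, a meiotic recombination factor named for its binding to Psmc3, ran from 0.776 to 2.22 CPM over the 9 libraries, and Psme2b, a close relative of Psme2, from 0.0890 to 0.891 CPM. The pseudogenes Psmb5-ps, Psmb6-ps2 and Psmb7-ps2 stayed at or below 0.0445, 0.0890 and 0.0673 CPM, and Psmb6-ps had no count in any library, against 11.7 CPM or more for Psmb5 and 43.9 CPM or more for Psmb6. Psmb5 also holds the microRNA gene Mir686, which shares 109 bases of its exon on the same strand, and 301 bases of Psmd1 exon are shared with Gm21972 on the same strand. Reads that overlap both genes of such a pair are counted for neither. Mir686 had no count, which therefore does not show its level. The effect of the uncounted reads on the levels of Psmb5 and Psmd1 was not tested.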
